A study of Mus musculus with 6 samples.

Results

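The 10 genes described here encode components of the basement membrane, the thin sheet of matrix that lies under epithelia and around vessels, muscle, fat and peripheral nerve. They are both nidogens (Nid1 and Nid2), 3 laminin α chains (Lama2, Lama4 and Lama5), 2 laminin β chains (Lamb1 and Lamb2), the laminin γ1 chain (Lamc1) and the heparan sulphate proteoglycans perlecan (Hspg2) and agrin (Agrn). Members were all probe sets that the platform annotation names for 1 of these genes alone, which gave 17 probe sets for 10 of the 12393 genes measured, and no filter on low values was applied. RNA came from the A_212 line, derived from adult mouse hypothalamus, and the N_46 line, derived from embryonic mouse hypothalamus, with 3 plates and 3 arrays for each. Both lines are labelled as expressing neuropeptide Y (Npy), both had been immortalised by overexpression of SV40 T-antigen, and both were harvested at 70% confluence from DMEM with 5% FBS, with no treatment named in the labels.

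The study asked which genes differ between an adult-derived and an embryonic-derived line. Each age is represented by 1 line, so age and line cannot be told apart, and since nothing in the labels says more of the plates than that they were triplicates, p-values measure the spread between plates. The deposited log2 values are centred to a median of 0 for each probe set over the 6 arrays. They therefore give differences between arrays and no level, so it cannot be read from them whether a gene was expressed, or which of 2 genes was the more abundant. The base of the logarithm is not stated, and base 2 was taken for every fold. Hypothalamic identity could not be checked for the same reason. A list of general and hypothalamic neuron markers gives differences only. Of its 21 genes measured, 2 were higher in A_212 (Stmn2 at 3.09 and Tubb3 at 1.13), 3 were lower and 16 did not pass the test. So 23.8% were called, where 39.2% of all genes were. Among those lower were Nkx2-1 at -0.86 and Ncam1 at -0.39. Stmn2, Tubb3 and Ncam1 are genes of neurons in general, and Npy itself did not pass (-0.05). The 6 probe sets of Ncam1 ran from -0.84 to 0.13, and its call was lost with plain probe sets alone (-0.13, adjusted p = 0.24).

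Laminins are trimers of 1 α, 1 β and 1 γ chain, many of them cross-shaped. Many, though not those with the shorter α4 chain, polymerise on the cell surface through their short arms. The end of the α chain binds receptors such as integrins and dystroglycan. Nidogens bridge the laminin γ1 chain to the type IV collagen network, and perlecan and agrin carry heparan sulphate and tie the sheet to growth factors and receptors. In the brain, basement membranes lie at the vessels and at the surface under the meninges, whereas neurons themselves are not wrapped in one. The α2 chain is known from muscle, Schwann cells and vessel-associated cells of the brain, α4 from endothelium and mesenchymal cells, and α5 from epithelia and mature endothelium.

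Of the 10 genes, 5 were higher in A_212 (Nid1, Lama2, Lama4, Hspg2 and Lamc1), 3 were lower (Nid2, Lama5 and Agrn) and 2 did not pass the test (Lamb1 and Lamb2). The test was limma with Benjamini-Hochberg adjustment over all 12393 genes, at an adjusted p under 0.05. It called 39.2% of all genes, 18.3% as higher and 20.9% as lower in A_212, so a call alone is common in this comparison. Differences of at least 2-fold that passed the test were rarer, at 5.83% of all genes, and 4 of the 10 genes had one: Nid1, Lama2, Nid2 and Lama5. The median absolute log2 difference was 0.56 over the 10 genes and 0.17 over all genes, and the median signed difference was 0.21, against -0.06 over all genes. The lines did not overlap in 9 of the 10 genes, where 51.1% of all genes show that separation. Since the members were chosen with earlier results of these data known, these comparisons with all genes are descriptive and test nothing about the group.

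**Figure D1:**
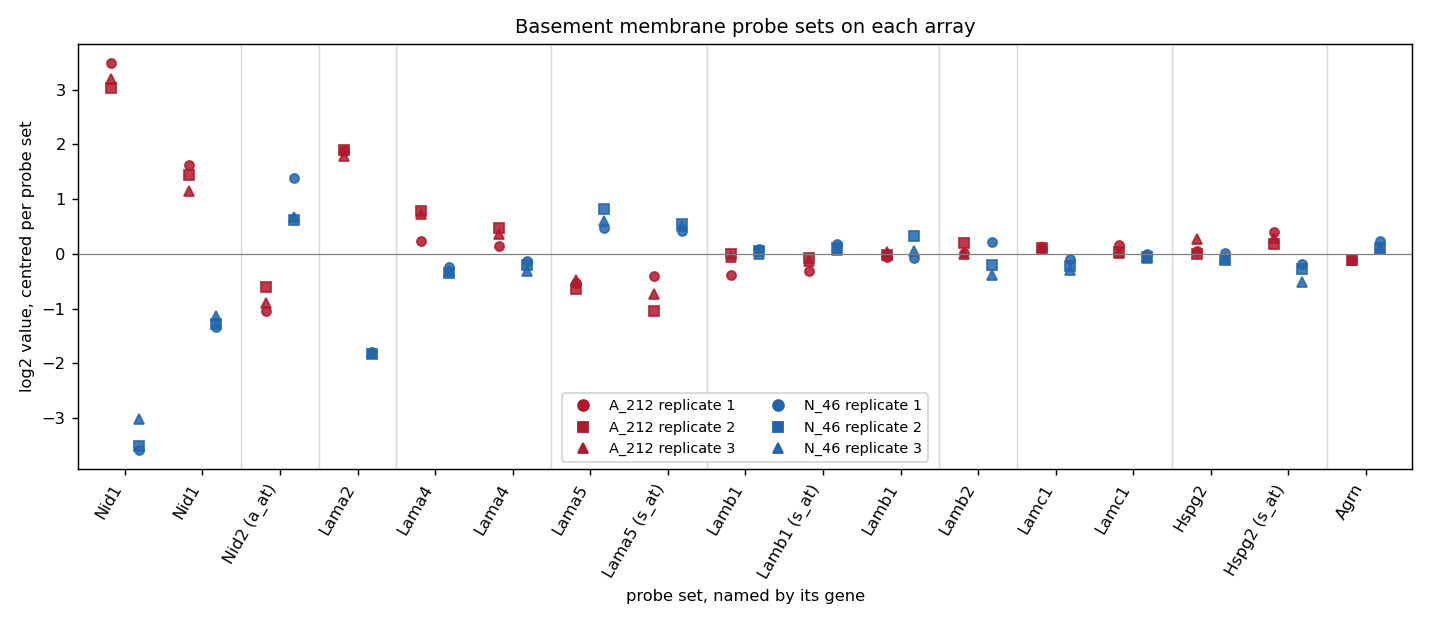
Centred log2 value (vertical axis) of each of the 17 probe sets (horizontal axis, by gene, with the type in brackets where it is not plain) on the 3 A_212 arrays (red) and the 3 N_46 arrays (blue), with 1 symbol shape per replicate. The lines stand furthest apart in the first Nid1 probe set, at 3.02 to 3.48 in A_212 and -3.58 to -3.02 in N_46, and Nid2 and Lama5 lie the other way round.

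The nidogens differed in opposite directions. Nid1, the nidogen first known as entactin, had centred log2 values of 2.55, 2.23 and 2.17 on the A_212 arrays, against -2.45, -2.40 and -2.08 on the N_46 arrays. All A_212 arrays lay far above all N_46 arrays. On average Nid1 was 4.63 ± 0.12 higher in A_212 (SE of the limma fit, n = 3 per line), or 24.7-fold with a 95% interval of 20.5 to 29.8 (limma adjusted p = 1.0e-09), and it ranked 13 by absolute size among the 12393 genes. This and every other gene value of Nid1 is the mean of 2 probe sets, at 6.60 and 2.65, and neither lies within the interval. Nid2, its paralogue, had values of -1.05, -0.61 and -0.90 in A_212, against 1.39, 0.61 and 0.67 in N_46. The lines were again apart, with N_46 replicate 1 well above the other N_46 arrays. Nid2 was 3.36-fold lower in A_212, at -1.75 ± 0.19 (95% interval -2.16 to -1.33, limma adjusted p = 3.4e-05), and without N_46 replicate 1 the difference was -1.50. Nid2 rests on 1 probe set, of the a_at type.

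The promoters of Nid1 and Lama5 are shown because these genes had the largest differences in each direction among the members with a promoter entry in the RefSeq table (build GRCm38.p6). Each stretch ends at the base before the annotated gene and is written 5′ to 3′ on the gene's strand. It spans chr13:13437352-13437601 on the plus strand for Nid1 and chr2:180225905-180226109 on the minus strand for Lama5. Capitals mark GC boxes (GGGCGG or its reverse complement CCGCCC) and CCAAT boxes (CCAAT or its reverse complement ATTGG), motifs that do not overlap here.
Nid1: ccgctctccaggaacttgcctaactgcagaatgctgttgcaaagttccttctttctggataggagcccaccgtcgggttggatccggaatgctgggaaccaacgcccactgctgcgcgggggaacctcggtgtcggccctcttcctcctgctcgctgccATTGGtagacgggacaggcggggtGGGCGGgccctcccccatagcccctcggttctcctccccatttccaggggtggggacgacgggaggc
Lama5: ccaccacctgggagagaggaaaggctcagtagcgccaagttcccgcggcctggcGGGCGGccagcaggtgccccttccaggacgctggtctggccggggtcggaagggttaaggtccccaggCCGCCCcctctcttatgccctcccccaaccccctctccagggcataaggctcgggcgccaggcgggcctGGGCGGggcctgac
The Nid1 stretch of 250 bases holds 1 GC box and 1 CCAAT box in reverse, and the Lama5 stretch of 205 bases holds 3 GC boxes and 0 CCAAT boxes. The GC content is 64.4% for Nid1 and 71.7% for Lama5.

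Among the 10 genes, 7 had an entry of 300 bases around a start: Nid1, Lama2, Lama5, Lamb1, Lamb2, Hspg2 and Agrn (Agrn had 2). GC boxes were found in 6 of these 7, all but Lamb2, where 35.7% of all 32851 promoter windows of that length hold one. CCAAT boxes were found in 2 (Nid1 and Lamb1), against 37.4% of all windows, and a TATA box (TATAAA or its reverse complement TTTATA) in 0, against 13.6%. In these comparisons the members were counted by gene and all windows singly. The GC content of the member windows ran from 44% (Lamb2) to 83.3% (Agrn), against a median of 52.7% over all windows. Windows with a GC box, which include the first bases of the gene, belonged both to genes higher in A_212 (Nid1, Lama2 and Hspg2) and to genes lower in it (Lama5 and Agrn). The Agrn windows hold 12 and 2 GC boxes and the Lama2 window 1. These are matches of letters only.

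The size of the Nid1 difference depended on the probe set. The probe set with the larger difference had values of 3.48, 3.02 and 3.20 in A_212 and -3.58, -3.52 and -3.02 in N_46, a difference of 6.60 ± 0.16 or 97.3-fold. The other probe set had values of 1.62, 1.44 and 1.14 in A_212 and -1.33, -1.28 and -1.14 in N_46, a difference of 2.65 ± 0.12 or 6.28-fold. Both are plain probe sets, a type designed to read 1 gene, and both separated the lines in the same direction. Their gap, taken within each array, averaged 1.83 ± 0.24 in A_212 and -2.12 ± 0.21 in N_46 (SD, n = 3 each), a difference of 3.95. What sets the sizes apart was not tested.

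Within each array, Nid1 minus Nid2 was 3.60, 2.84 and 3.08 in A_212, against -3.84, -3.01 and -2.75 in N_46. The groups did not overlap, and their means differed by 6.37. Since Nid1 and Nid2 each separated the lines, in opposite directions, no overlap was possible and the outcome of the next test was fixed. An exact two-sided permutation test over the 20 splits of the arrays gave p = 0.1, the smallest value that 3 against 3 arrays allow, so this test could not pass 0.05. The quantity combines the opposite differences given above, and because each gene is centred, it does not show which nidogen was in excess in either line.

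The laminin α chains also went both ways. Lama2, the α2 chain of laminin-211 and laminin-221, whose loss causes congenital muscular dystrophy, had values of 1.87, 1.90 and 1.79 in A_212, against -1.79, -1.83 and -1.81 in N_46. The SD within a line was 0.06 in A_212 and 0.02 in N_46, and the lines lay far apart. The difference of 3.66 ± 0.07, 12.7-fold (95% interval 11.4 to 14.1, limma adjusted p = 1.3e-10), ranked 46 among all genes. It rests on 1 plain probe set.

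Lama4, the α4 chain of laminin-411, had values of 0.19, 0.63 and 0.55 in A_212, against -0.19, -0.29 and -0.32 in N_46. A_212 replicate 1 was the lowest of its line and still above every N_46 array. The difference was 0.72 ± 0.11, or 1.65-fold (limma adjusted p = 3.7e-04), and its probe sets stood at 0.90 and 0.55. Without A_212 replicate 1 it was 0.85.

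Lama5, the α5 chain of laminin-511 and laminin-521, was the α chain that was lower in A_212. Its values were -0.47, -0.84 and -0.60 in A_212, against 0.44, 0.69 and 0.56 in N_46, with no overlap. The difference was -1.20 ± 0.10, 2.3-fold lower (95% interval -1.43 to -0.97, limma adjusted p = 6.9e-06). Its plain probe set (-1.18) and its s_at probe set (-1.22), which may also read related transcripts, gave almost the same size.

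The β and γ1 chains, with which these α chains assemble, had smaller differences. Lamc1, the γ1 chain and the partner of nidogen, had values of 0.14, 0.07 and 0.07 in A_212, against -0.06, -0.14 and -0.18 in N_46. The lines did not overlap, and the difference was 0.22 ± 0.07, or 1.16-fold (limma adjusted p = 0.031), with 1 of its 2 probe sets past the test (0.32, against 0.12 for the other), a call it lost without N_46 replicate 3 (adjusted p = 0.058). The call of the Lamc1 gene was lost without A_212 replicate 1 (adjusted p = 0.095), A_212 replicate 2 (0.055), N_46 replicate 2 (0.10) or N_46 replicate 3 (0.14).

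Lamb1, the β1 chain, had values of -0.25, -0.03 and -0.05 in A_212, against 0.06, 0.17 and 0.04 in N_46, and although the lines did not overlap, it did not pass the test (-0.20 ± 0.08, limma adjusted p = 0.075). Its 3 probe sets lay at -0.19, -0.29 and -0.12, and the s_at probe set among them passed (-0.29, adjusted p = 0.023), though not without A_212 replicate 1 (0.091) or N_46 replicate 1 (0.062), 2 (0.062) or 3 (0.050). Lamb1 passed with array weights, at -0.23 with an adjusted p = 0.031. Lamb2, the β2 chain of synaptic and vascular laminins, had values of 0.01, 0.20 and -0.01 in A_212, against 0.21, -0.20 and -0.39 in N_46. It was the 1 member gene whose lines overlapped, through N_46 replicate 1, and its difference of 0.19 had a 95% interval of -0.11 to 0.50 (limma adjusted p = 0.29). Without N_46 replicate 1 it was 0.36 and passed (adjusted p = 0.017). Lamb2 rests on 1 plain probe set.

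**Figure D2:**
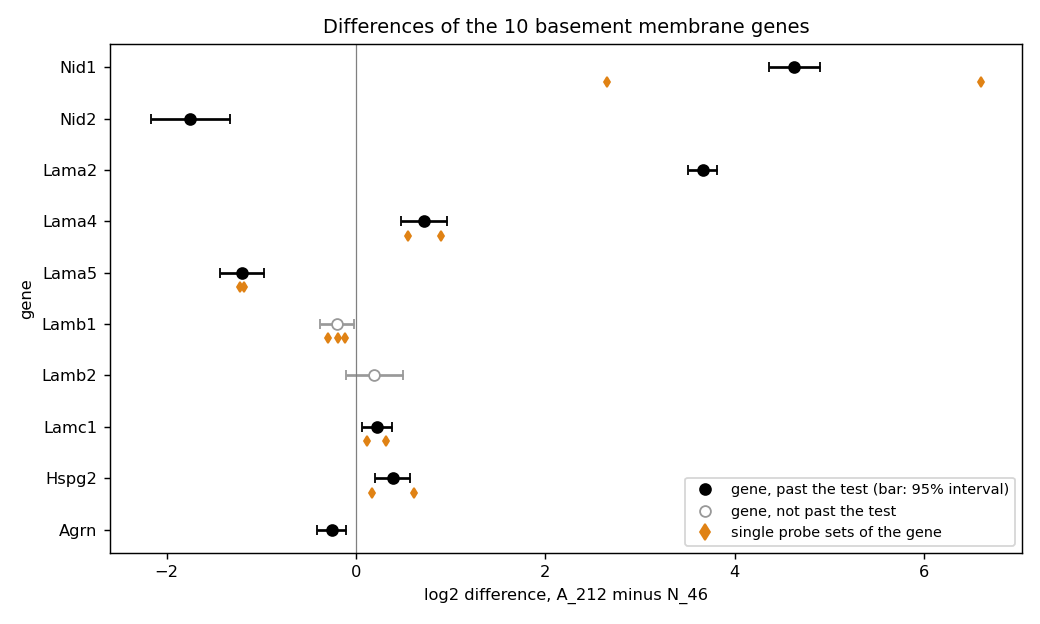
Log2 difference, A_212 minus N_46, of the 10 genes (black circles past the limma test, open grey circles not past it, bars for the 95% interval), with the single probe sets of genes that have several below each gene as orange diamonds. Nid1 (4.63) and Lama2 (3.66) lie far to the right, Nid2 (-1.75) and Lama5 (-1.20) to the left, and the β and γ1 chains close to 0.

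Differences between chains were taken within arrays for pairs chosen after the values were seen. Lama2 minus Lama5 averaged 2.49 ± 0.22 in A_212 and -2.37 ± 0.14 in N_46 (SD, n = 3 each), a difference of 4.86. Relative to Lamc1, the difference between the lines was 3.44 for Lama2, 0.50 for Lama4 and -1.42 for Lama5. The lines did not overlap in any of the 3. Counting the nidogens, the Nid1 probe sets and the proteoglycans, 7 such quantities were tested, each at the smallest exact permutation p of 0.1. It was also 0.1 after adjustment over the 7. For Nid1 with Nid2, Lama2 with Lama5, Lama5 with Lamc1 and Hspg2 with Agrn, both genes already separated the lines, in opposite directions. Overlap was impossible for these pairs, so their p-value was fixed and adds nothing to the single genes.

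**Figure D3:**
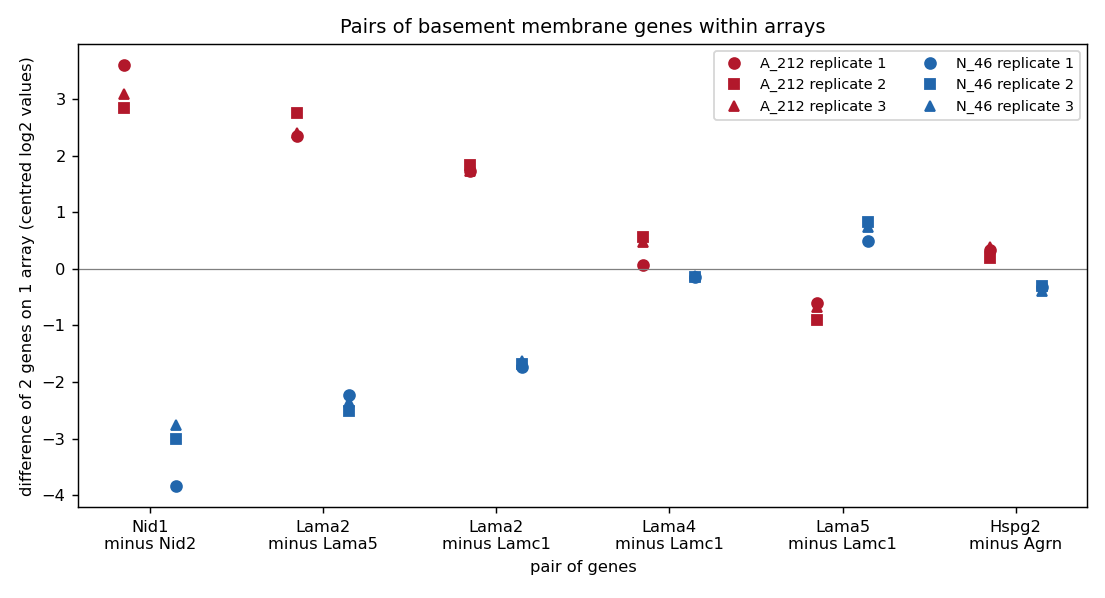
Difference of the centred log2 values of 2 genes on the same array (vertical axis) for 6 pairs of genes (horizontal axis), for the 3 A_212 arrays (red) and the 3 N_46 arrays (blue), with 1 symbol shape per replicate. Nid1 minus Nid2 ranged from 2.84 to 3.60 in A_212 and from -3.84 to -2.75 in N_46. No pair overlapped between the lines, which had to hold where both genes separated the lines in opposite directions.

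The proteoglycans had small differences in opposite directions. Hspg2, perlecan, had values of 0.22, 0.09 and 0.28 in A_212, against -0.09, -0.20 and -0.29 in N_46, a difference of 0.39 ± 0.08 or 1.31-fold (limma adjusted p = 0.0036). Its probe sets differed, with the s_at one at 0.61 (adjusted p = 8.4e-04), while the plain one stood at 0.17, did not pass (adjusted p = 0.19) and overlapped between the lines. Agrn, the organiser of the neuromuscular synapse, had values of -0.10, -0.11 and -0.11 in A_212, against 0.23, 0.11 and 0.10 in N_46. It was 1.19-fold lower in A_212, at -0.25 ± 0.07 (limma adjusted p = 0.015), with adjusted p-values up to 0.048 when 1 array was left out. Agrn rests on 1 plain probe set. Hspg2 minus Agrn averaged 0.30 ± 0.10 in A_212 and -0.34 ± 0.05 in N_46 (SD, n = 3 each).

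Tested one by one, 7 of the 17 probe sets were higher in A_212, 5 were lower and 5 did not pass, where 36.0% of 22626 probe sets on the array were called (17.1% higher and 19.0% lower). The lines did not overlap in 14 of the 17, against 48.7% of all probe sets. Within a line, the SD of a member gene was at most 0.23 in A_212 (Lama4) and at most 0.43 in N_46 (Nid2). By chromosome, the members were spread out, with Lama2 and Lama4 both on chromosome 10 and Hspg2 and Agrn both on chromosome 4, and the first pair agreed in direction while the second did not.

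The genes nearest to each nidogen were those with the smallest Euclidean distance over the 6 arrays, after each gene was centred on its mean. For Nid1 they were Hspb1 (distance 0.40, difference 4.81), Grb10 (0.45, 4.46) and Tfap2b (0.47, 4.59). For Nid2 they were Hes1 (-1.62), Plekha1 (-1.59) and Cbr2 (-1.49), all at a distance of 0.36. With 2 lines, such likeness over 6 arrays mostly restates the size of the difference between them.

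The other genes of the basement membrane were taken from 9 lists by role, with 113 genes measured. Of these, 39 were higher in A_212, 21 were lower and 53 did not pass, so 53.1% were called, against 39.2% of all genes, and their median difference was 0.05. The lists were also chosen with earlier results of these data known, so that share is descriptive. For the laminin chains outside the members, Lama1, Lama3, Lamb3 and Lamc3, limma called 0 of 4, with differences of 0.01, 0.05, 0.18 and -0.13. At an unadjusted p under 0.05 the count was 1, Lamb3, which also passed with array weights (0.22, adjusted p = 0.025), after a second quantile normalisation (0.21, just under the threshold) or without A_212 replicate 3 (0.22, adjusted p = 0.049).

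Type IV collagen, the second network of the sheet, was higher in A_212 in all 6 of its chains. Of 8 basement membrane collagens measured, 6 were higher in A_212, 1 was lower (Col18a1) and 1 did not pass (Col15a1 at 0.06). The share called was 87.5%, against 39.2% of all genes, and the median difference was 0.60. Col4a6 (1.58 ± 0.08, limma adjusted p = 1.1e-07) and Col4a5 (1.58 ± 0.07, 4.2e-08) had the largest differences, and the other chains lay at 0.98 for Col4a2, 0.64 for Col4a4, 0.56 for Col4a1 and 0.42 for Col4a3. These chains are encoded as head-to-head gene pairs (Col4a1 with Col4a2, Col4a3 with Col4a4, Col4a5 with Col4a6). Since all 6 were higher in A_212, the same sign within each pair follows and says nothing about the pairing. Col18a1, the source of endostatin, stood at -0.36 (adjusted p = 0.026) and lost its call in several settings, with 0.064 without A_212 replicate 1, 0.054 without N_46 replicate 2 and 0.078 without N_46 replicate 3.

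Among 14 other components measured, 7 were higher in A_212, 2 were lower and 5 did not pass, with a median of 0.17. The share called was 64.3%, against 39.2% of all genes. The SPARC-related gene Smoc1 (1.78) and fibulin 1 (Fbln1, 1.11) were higher. Netrin 1 (Ntn1, -1.51, with probe sets at -2.23 and -0.79) and netrin 4 (Ntn4, -0.45), whose protein binds the laminin γ1 short arm and interferes with polymerisation, were lower in A_212.

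**Figure D4:**
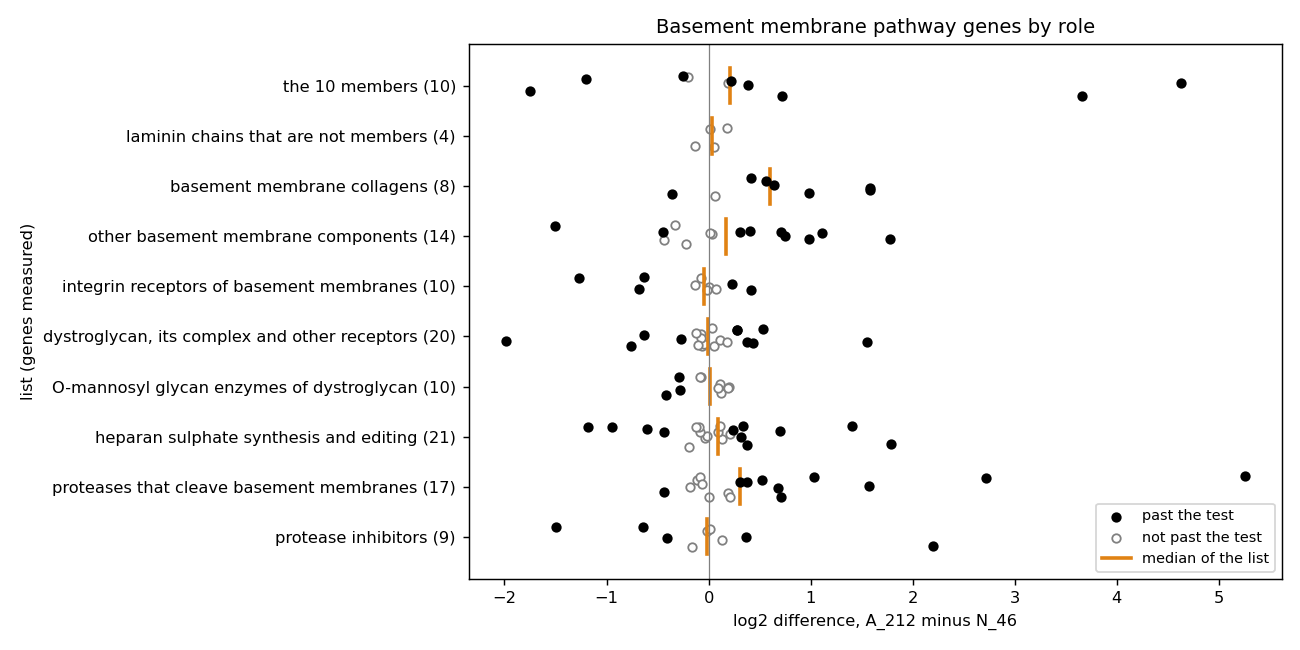
Log2 difference, A_212 minus N_46, of single genes (horizontal axis) in the 10 members and in 9 lists of the pathway (vertical axis, genes measured in brackets), filled where the gene passed the limma test and open where it did not, with the median of each list in orange. The basement membrane collagens have the highest median (0.60), and Mmp2 is the point farthest to the right (5.26).

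Receptors were called in both directions. Of 10 integrin genes measured, 2 were higher in A_212 (Itgav at 0.42 and Itgb1 at 0.23), 3 were lower and 5 did not pass. So 50% were called, against 39.2% of all genes, which were also called both ways (18.3% higher and 20.9% lower). The laminin-binding α subunits Itga3 (-1.27) and Itga7 (-0.68) were lower, as was Itga6 (-0.63), named after its values were seen to complete the 3. Itgb1, the β1 subunit they pair with, has 6 probe sets from -0.01 to 0.36 and lost its call without A_212 replicate 1 (adjusted p = 0.10), A_212 replicate 3 (0.051), N_46 replicate 1 (0.063) or N_46 replicate 3 (0.14), and with plain probe sets alone (0.13).

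Of 20 genes of dystroglycan, its complex and other receptors, 6 were higher in A_212, 4 were lower and 10 did not pass. The share called was 50%, against 39.2% of all genes, and the median was -0.01. Dystrophin (Dmd, 1.55, with probe sets from -0.07 to 2.77) and δ-sarcoglycan (Sgcd, 0.53) were higher. The netrin receptor gene Unc5b (-1.99) and Lrp4, the agrin receptor of muscle (-0.76), were lower, beside the lower Agrn. Dystroglycan itself (Dag1), which binds the α2 chain and was also named after its values were seen, stood at 0.38 ± 0.11 (limma adjusted p = 0.015) and lost its call without A_212 replicate 2 (0.065), N_46 replicate 2 (0.058) or N_46 replicate 3 (0.066). Of 10 enzymes measured that build the O-mannosyl glycan of dystroglycan, limma called 0 as higher in A_212 (2 at an unadjusted p under 0.05). Of these enzymes, 3 were lower and 7 did not pass, so 30% were called, against 39.2% of all genes. The 3 calls became 1 without A_212 replicate 1, N_46 replicate 2 or N_46 replicate 3. B3galnt2 stood at -0.42 and Pomgnt1 at -0.28, and Pomgnt1 lost its call without A_212 replicate 1 (adjusted p = 0.058), N_46 replicate 2 (0.060) or N_46 replicate 3 (0.061).

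Genes that make or edit heparan sulphate, the chain carried by perlecan and agrin, were also split. Of 21 measured, 7 were higher in A_212, 4 were lower and 10 did not pass, with a median of 0.09. The share called was 52.4%, against 39.2% of all genes. The endosulfatase gene Sulf2 (1.79), which removes 6-O-sulphates, and the sulphotransferase gene Hs6st2 (1.40), which adds them, were both higher. The sulphotransferase gene Hs3st1 (-1.18) and the linker enzyme gene B3galt6 (-0.95) were lower.

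Of 17 proteases that cleave basement membranes, 9 were higher in A_212, 1 was lower and 7 did not pass, with a median of 0.31. The share called was 58.8%, against 39.2% of all genes. Mmp2, the gelatinase that degrades type IV collagen, differed by 5.26 ± 0.08 and Mmp3 by 2.72 ± 0.25, while the procollagen proteinase gene Bmp1 stood at -0.44. Of 9 protease inhibitors measured, 2 were higher, 3 were lower and 4 did not pass (55.6% called), with a median of -0.02. The membrane-anchored inhibitor gene Reck (2.20) was higher in A_212, and the matrix-bound inhibitor gene Timp3 (-1.50) and Spint2 (-0.64) were lower. Timp2 stood at 0.37 and lost its call without A_212 replicate 1 (adjusted p = 0.059), A_212 replicate 2 (0.059), N_46 replicate 2 (0.078) or N_46 replicate 3 (0.079).

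Markers of cells that make basement membranes differed between the lines as well. Limma called 77.8% of the fibroblast and meningeal list and 66.7% of the pericyte and smooth muscle list, against 39.2% of all genes. The cultures are of cell lines, and no label names fibroblasts, pericytes or smooth muscle cells among them. In RNA of whole cultures, fewer cells of a type and less RNA per cell cannot be told apart. Of 18 fibroblast and meningeal markers, 12 were higher in A_212, 2 were lower and 4 did not pass, with Cdh11 (5.74) and Thbs2 (5.25) against Col1a1 (-0.55) and Twist2 (-0.39). The mean centred value of that list was 0.67 to 0.89 on the A_212 arrays and -0.83 to -0.71 on the N_46 arrays. Of 15 pericyte and smooth muscle markers, 9 were higher, 1 was lower and 5 did not pass, led by Actg2 (4.17) and Cnn1 (2.65) against Mcam (-0.73), and the list's mean was 0.31 to 0.44 in A_212 and -0.59 to -0.33 in N_46. Centring leaves no level, so whether a defining marker is absent cannot be read. Whether the marker differences relate to the nidogen and laminin differences was not tested.

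The other marker lists had medians near that of all genes. The share called was 50% for the endothelial list, against 39.2% of all genes. It was below that for the epithelial (14.3%), Schwann cell and neural crest (30%) and astrocyte and tanycyte (21.4%) lists. Of 16 endothelial markers, 3 were higher in A_212 and 5 were lower, with Eng (2.44) and Flt1 (0.92) against Plvap (-1.46) and Flt4 (-0.72), and the list's mean was -0.07 to 0.14 in A_212 and -0.02 to -0.01 in N_46. Of 14 epithelial markers, 1 was higher (Krt19, 1.01) and 1 was lower (Dsp, -0.77), with means of -0.09 to 0.07 in A_212 and -0.02 to 0.03 in N_46. Of 10 Schwann cell and neural crest markers, 1 was higher (Tfap2b, 4.59) and 2 were lower (Tfap2a at -1.66 and Egr2 at -0.53), with means of 0.03 to 0.19 in A_212 and -0.15 to -0.09 in N_46. Of 14 astrocyte and tanycyte markers, limma called 0 as higher in A_212 (0 also at an unadjusted p under 0.05) and 3 as lower, among them Slc1a3 (-2.47) and Gja1 (-1.30), with means of -0.23 to -0.11 in A_212 and 0.14 to 0.18 in N_46.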

How the data were processed

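RNA of 6 plates was hybridised to 6 arrays of 22690 probe sets. The deposited log2 values come from RMA, per the submitters' processing notes (version not given in the sources used here), and had been centred by probe set, which no label mentions: all row medians are 0 within 5e-07. The number of arrays limits the precision. Quantile normalisation, part of RMA, would hide a difference in total RNA.

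The platform annotation named 1 gene for 20380 probe sets, several for 691 and none for 1555, besides 64 controls. Of the 20380, 20351 were found in a RefSeq table of assembly GRCm38.p6. A gene's value was the mean of its probe sets. A_212 was compared with N_46 by a two-sided limma test (lmFit, then eBayes without a trend), adjusted by Benjamini-Hochberg over all 12393 genes or 22626 probe sets and checked on simulated data. Single quantities were compared by exact permutation tests. Members and lists were chosen with earlier results of these data known. The text names all 10 members, up to 2 genes each way per list among those called with no overlap, and the 3 genes nearest to each nidogen. Outside that rule, Npy, Lama1, Lama3, Lamb3, Lamc3, Col4a1 to Col4a4, Col15a1, Itga6 and Dag1 were named after their values were seen. Tools were limma 3.58.1 in R 4.3.3, and scipy 1.17.1, pandas 2.3.3, numpy 2.4.6 and matplotlib 3.10.9 in Python 3.11.15.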

Additional observations from a re-analysis of the deposited data

How the results depend on the processing

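The comparison was repeated with 1 common median for all arrays, a second quantile normalisation, eBayes made robust or given a trend, array weights, the replicate number as a block, 5 of the 6 arrays, plain probe sets alone and the median of a gene's probe sets. In the fits over genes, Nid1, Nid2, Lama2, Lama4, Lama5 and Agrn kept their direction and their call wherever they were measured. For Agrn the limma adjusted p-values ran from 0.014 to 0.048. No member changed direction. Nid2 has no plain probe set, so neither it nor Nid1 minus Nid2 could be computed there. Hspg2 lost its call with plain probe sets alone (0.17, adjusted p = 0.17), and Lamb1 gained one with array weights (-0.23). Leaving out 1 array gave 4.51 to 4.74 for Nid1, -1.89 to -1.50 for Nid2, 3.64 to 3.69 for Lama2, 0.64 to 0.85 for Lama4, -1.29 to -1.10 for Lama5, 0.19 to 0.25 for Lamc1, 0.06 to 0.36 for Lamb2, and 6.05 to 6.60 for Nid1 minus Nid2. Between 7 and 9 of the 10 members, and 9 to 12 of their 17 probe sets, were then called, and 3903 to 5124 of all genes. The Agrn probe set lost its call among all probe sets in 5 of these 6 fits, and also after the second quantile normalisation (limma adjusted p = 0.055). With the replicate block 4834 genes were called, in place of 4853, and 8 members, and no member's call changed. Same-numbered plates did not deviate together from their line means (r over genes of -0.03, -0.01 and 0.09), and A_212 replicate 3 correlated best with its own number in N_46, and replicates 1 and 2 did not.

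A second quantile normalisation moved Lama2 to 3.11 and Nid2 to -2.11. Both it and the trend setting were run on the centred values, which carry no level, so they are weak checks. With plain probe sets alone, 3 integrins were called in place of 5 and 7 heparan sulphate genes in place of 11, and in 3 of the 6 fits without 1 array, 1 enzyme of the dystroglycan glycan in place of 3. The median difference of all genes moved by at most 0.03 under any scaling. With 3 arrays per line and centred values, brightness and background could not be used as limits.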
